A study of Mus musculus with 7 samples.

Results

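The mRNAs of 6 tetraspanins, Cd9, Cd53, Cd63, Cd37, Cd81 and Cd82, were followed through mouse neutrophils of bone marrow, spleen and blood and through neutrophils recruited to inflamed joint, lung and peritoneum. The genes were taken by name, and all 6 were found in each of the 7 count tables, among 28719 gene symbols in all. Healthy cells came from male C57BL/6J mice, with bone marrow, spleen and blood of the same mice in each of 2 runs, at 6 weeks of age in run 1 and 8 weeks in run 2. In a separate library, 5 conditions were marked by hashtag oligomers: healthy blood, blood and joint lavage of mice with K/BxN serum transfer arthritis, lung lavage after IL-1β given into the nose under ketamine and xylazine, and peritoneal lavage after intraperitoneal IL-1β. Arthritic mice, aged 8 weeks, had received 150 µl of serum from K/BxN mice intraperitoneally on day 0 and day 2 and were taken on day 7, and IL-1β was given at 25 ng for 3 hours, also at 8 weeks. The mice given serum or IL-1β were male wild-type mice as well. The age of the healthy mice of the hashtag library is not given in the sources used here. Each library or condition pooled 3 mice, and all cells had been sorted as live CD11b+ Ly6G+ cells that excluded propidium iodide, so cells with little surface Ly6G were not sampled.

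Tetraspanins are small proteins that cross the membrane several times, and they gather integrins, immunoglobulin-family proteins, proteases and signalling molecules into laterally ordered patches of membrane. CD9 and CD81 are broadly expressed at the plasma membrane and are common surface markers of exosomes. CD53 and CD37 are restricted to leukocytes, CD37 being best known from B cells, and CD82, first described as a metastasis suppressor, is found at the plasma membrane and in endosomes. CD63 resides in late endosomes and lysosomes and, in neutrophils, marks the membrane of the primary (azurophilic) granules, which are made early in the bone marrow.

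A cell of a healthy library was kept when S100a8 and S100a9, the calprotectin genes, made up at least 3% of its unique molecular identifiers (UMIs) and Cd79a, Cd79b and Cd3e together had fewer than 2 UMIs. A cell of the hashtag library was kept when the deposited annotation named it a neutrophil. This left 17477 of 21763 cells, of which blood held 1305 (run 1) and 3644 (run 2), bone marrow 1206 and 3392, and spleen 1133 and 1945. The hashtag library gave 509 in healthy blood, 814 in arthritic blood, 2857 in joint, 380 in lung and 292 in peritoneum. With limits on cell quality, 367 lung and 287 peritoneal cells were left. The study's text gives the numbers of cells of these 2 sites in the opposite order to the deposited annotation, which was followed here. As a check of these labels, genes that its text names for one site or the other were looked up. Under the annotation, 11 of 11 genes named for lung had the higher CPM in lung (Osm 685 against 93.4) and 18 of 18 named for peritoneum the higher in peritoneum (Klf2 2614 against 488). These genes were named from the same cells and are no independent evidence. Their UMIs were summed per library or condition, to between 942688 and 10293966, and levels are given as CPM, the count out of 1000000 UMIs of that sum. Ly6g, the gene of the sorted antigen, which the rule for keeping cells did not use, had 53.3 to 1221 CPM over the libraries and conditions. The spleen libraries stood apart from each other, since 40.6% of the cells of spleen run 1 but 2.98% of those of run 2 had at least 5% of their UMIs from the granule genes Camp, Ngp, Ltf and Lcn2, where bone marrow held 52.9% and 34.1% of such cells and blood 9.58% and 0.659%. RNA of other cells was also seen. The 5 haemoglobin and haem genes summed to 30749 CPM in blood run 2 and at most 912 elsewhere, the 9 platelet genes to 130 and 223 CPM in the blood runs and at most 13.8 elsewhere, and the 6 B-cell genes to 407 CPM in spleen run 2 and 3.8 to 209 elsewhere. Ighm, which gave most of each of these sums outside run 1, had 0 CPM in the 3 libraries of run 1 and 72.6 to 265 CPM in those of run 2, and the runs were counted with different versions of the counting software, so the B-cell sums of the runs cannot be compared. The 5 T-cell genes ranged from 12.4 to 104 CPM, highest in spleen run 2, the 4 mast cell or basophil genes from 0 to 40.03 CPM and the eosinophil genes from 0 to 7.1 CPM. The 11 monocyte or macrophage genes summed to 270 to 1390 CPM, of which Ly6c2, a gene that immature neutrophils also express, gave most in bone marrow. Libraries shared between 0 and 36 cell barcodes in pairs.

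The promoters of Cd9, Cd53, Cd63 and Cd81 are shown, the first pair for genes with intervals above healthy blood at all 3 inflamed sites below and the second for genes lower in blood than in bone marrow. They are 300-base windows from RefSeq (GRCm38.p6, the build of the deposited counts), 250 bases before and 50 after an annotated start, on the strand of the gene. Capitals mark matches to the 6 short motifs spelled out after the sequences, searched on both strands.
Cd9, chr6:125494711-125495010, minus strand: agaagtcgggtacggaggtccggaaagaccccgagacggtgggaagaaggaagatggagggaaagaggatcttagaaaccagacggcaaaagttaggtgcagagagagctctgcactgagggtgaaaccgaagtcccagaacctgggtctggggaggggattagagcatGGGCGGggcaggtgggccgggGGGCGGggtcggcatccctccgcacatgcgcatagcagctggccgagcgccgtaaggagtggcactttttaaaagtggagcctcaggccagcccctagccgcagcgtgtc
Cd53, chr3:106790100-106790399, minus strand: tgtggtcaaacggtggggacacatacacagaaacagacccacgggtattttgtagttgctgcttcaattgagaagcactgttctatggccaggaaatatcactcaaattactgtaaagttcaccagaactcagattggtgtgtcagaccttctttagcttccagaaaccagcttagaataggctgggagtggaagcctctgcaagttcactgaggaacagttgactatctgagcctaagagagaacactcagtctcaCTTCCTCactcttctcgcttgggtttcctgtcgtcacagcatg
Cd63, chr10:128909095-128909394, plus strand: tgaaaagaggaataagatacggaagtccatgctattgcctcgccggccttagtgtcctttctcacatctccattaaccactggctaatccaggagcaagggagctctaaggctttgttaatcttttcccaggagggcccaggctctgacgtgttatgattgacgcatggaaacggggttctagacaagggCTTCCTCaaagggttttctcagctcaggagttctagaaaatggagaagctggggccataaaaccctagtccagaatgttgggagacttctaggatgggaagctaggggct
Cd81, chr7:143052500-143052799, plus strand: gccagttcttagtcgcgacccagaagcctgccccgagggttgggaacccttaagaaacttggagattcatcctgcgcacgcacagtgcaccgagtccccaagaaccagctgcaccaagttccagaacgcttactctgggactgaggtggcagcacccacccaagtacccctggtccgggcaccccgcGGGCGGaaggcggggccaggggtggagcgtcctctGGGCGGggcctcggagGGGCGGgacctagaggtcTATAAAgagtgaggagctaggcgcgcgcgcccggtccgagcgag
The Cd9 and Cd81 windows carried GC boxes, and the Cd81 window also a TATA box just downstream of the annotated start. The Cd53 and Cd63 windows carried an ETS motif read on the opposite strand. Over all 32851 windows of the reference, the ETS motif GAGGAAG was found in 13.6%, the C/EBP motif TTGCNNAA in 10.8% and the AP-1 motif TGANTCA in 7.81%. The E-box CACGTG was found in 7.15%, the TATA box written TATAAA in 13.6% and the GC box GGGCGG in 35.7%. The AP-1 motif and the E-box read alike on both strands. None of the 9 windows listed for the 6 genes held the AP-1 motif. The genes lie at chr6:125460266-125494791 (Cd9), chr3:106759921-106790149 (Cd53), chr10:128900989-128912822 (Cd63), chr7:45233632-45239115 (Cd37), chr7:143052739-143067934 (Cd81) and chr2:93419111-93463140 (Cd82) in the GENCODE annotation of GRCm38, where the Cd63 window falls inside the gene span. Cd9, Cd37, Cd81 and Cd82 overlap other annotated genes on the opposite strand, among them Tead2 for Cd37, and whether the counting used strand is not stated in the sources used here.

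In healthy tissues, 2 of the 6 genes were higher and 2 lower in blood than in bone marrow, while Cd9 and Cd37 passed no test. In run 1, Cd82 had 223 CPM in blood, 93.9 in bone marrow and 127 in spleen, and in run 2 it had 200.3, 74.6 and 181. Cd53 had 647, 337 and 488 CPM in the same order in run 1 and 840.3, 400.5 and 801 in run 2. For both genes each bone marrow library lay below every blood and spleen library. In edgeR's quasi-likelihood test with run as a block and Benjamini-Hochberg adjustment over all genes, Cd82 rose by a log2 difference of 1.05 ± 0.21 (SE, n = 2 libraries per tissue; adjusted p = 0.0115) and Cd53 by 0.72 ± 0.22 (adjusted p = 0.0481) from bone marrow to blood. These are 2 of 6 genes higher, where 12.3% of the 7748 genes tested were.

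Cd63 and Cd81 ran the other way. In run 1, Cd81 had 57.5 CPM in blood, 136 in bone marrow and 129 in spleen, and in run 2 it had 30.1, 97.0 and 41.6. Cd63 had 357, 558 and 509 CPM in the same order in run 1 and 245, 459 and 243 in run 2. Blood lay below bone marrow in both runs for both genes, whereas spleen run 1 was near the bone marrow and spleen run 2 near the blood of its run. Cd81 fell by 1.79 ± 0.37 (log2, SE) and Cd63 fell by 1.08 ± 0.32 from bone marrow to blood in edgeR's quasi-likelihood test, with adjusted p = 0.0131 and 0.0439 after Benjamini-Hochberg adjustment. Of all genes tested, 11.3% were lower. The scaling mattered for the balance of calls, since with library totals in place of the trimmed-mean (TMM) factors 986 genes were higher and 502 lower in blood, against 955 and 876, and Cd63 no longer passed (adjusted p = 0.109). That change moved the median log2 difference of all genes from -0.03 to 0.26.

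Cd9 and Cd37 passed no test between blood and bone marrow. In run 1, Cd9 had 679 CPM in blood, 684 in bone marrow and 800.3 in spleen, and in run 2 it had 1177, 941 and 1161, with the runs further apart than the tissues. Its log2 difference between blood and bone marrow was -0.12 (95% interval -0.70 to 0.46; adjusted p = 0.764, range over alternatives 0.497 to 0.993), and without TMM it was 0.16. Cd37 had 237, 146 and 177 CPM in the same order in run 1 and 161, 117 and 153 in run 2. The values of Cd37 in blood exceeded those in bone marrow within each run, but the log2 difference of 0.29 (interval -0.20 to 0.78) missed the threshold (adjusted p = 0.362 in edgeR's quasi-likelihood test, range 0.17 to 0.923).

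The calls depended on the blood and bone marrow libraries and not on those of spleen, without either of which all 4 passed. Without blood run 1 or blood run 2 none of the 6 genes passed between blood and bone marrow (224 and 133 genes of the whole table did), where the log2 differences were 1.08 and 1.02 for Cd82, 0.82 and 0.62 for Cd53, -1.60 and -1.99 for Cd81 and -0.88 and -1.31 for Cd63. Without bone marrow run 2 only Cd81 passed (adjusted p = 0.0474 in edgeR's quasi-likelihood test), at a log2 difference of -1.17, while Cd82 was at 0.95, Cd53 at 0.72 and Cd63 at -0.63. Without bone marrow run 1 Cd53 was lost (adjusted p = 0.273) while the log2 difference stayed at 0.72. Cd53 was also lost with limits on cell quality (adjusted p = 0.108), with S100a8 and S100a9 at 10% or more (0.0717) and without the filter on low counts (0.0521, all in edgeR). Over all alternatives the adjusted p ranged from 0.000984 to 0.436 for Cd82, 0.0185 to 0.634 for Cd53, 2.16e-05 to 0.426 for Cd81 and 0.00214 to 0.634 for Cd63. Without every cell that had a UMI of a platelet gene the same 4 genes passed, with log2 differences of 1.06 for Cd82, 0.73 for Cd53, -1.85 for Cd81 and -1.08 for Cd63. With all deposited cells, lymphocytes and erythroid cells included, none of the 6 and none of all genes passed, and the log2 differences were 1.05, 0.74, -1.43 and -1.15, of which Cd81 had an unadjusted p of 0.0105 in edgeR.

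Between spleen and bone marrow none of the 6 genes passed in edgeR's quasi-likelihood test or in DESeq2. In edgeR's test 2.57% of all genes were higher and 0.632% lower in spleen (103 and 10 genes in place of 199 and 49 without TMM). At an unadjusted p under 0.05, edgeR counted 1367 of all genes, among them Cd82 and Cd53. Between spleen and blood none of the 6 passed in either tool, beside 0.142% of all genes higher and 0.0645% lower in edgeR's test (1 and 5 genes in place of 11 and 5 without TMM), with 800 genes at an unadjusted p under 0.05, among them Cd81. The fitted log2 differences from bone marrow to spleen were 0.70 ± 0.21 (SE) for Cd82, 0.61 ± 0.22 for Cd53, -0.74 ± 0.36 for Cd81 and -0.65 ± 0.32 for Cd63. The values of Cd81 and Cd63 depended on the run. Without spleen run 2 they were -0.11 and -0.14, and without bone marrow run 2 they were -0.20 and -0.25. Without spleen run 1, Cd81 fell by 1.52 and Cd63 by 1.24 with adjusted p = 0.0167 and 0.0237 in edgeR's quasi-likelihood test (range over alternatives 0.0167 to 1 and 0.0237 to 1), and without bone marrow run 1 Cd81 also passed (adjusted p = 0.04). For Cd81 the log2 difference from blood to spleen was 1.05 ± 0.38 over all libraries (adjusted p = 0.457 in edgeR's quasi-likelihood test). It was 1.65 without spleen run 2 and 0.22 without spleen run 1.

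**Figure D1:**
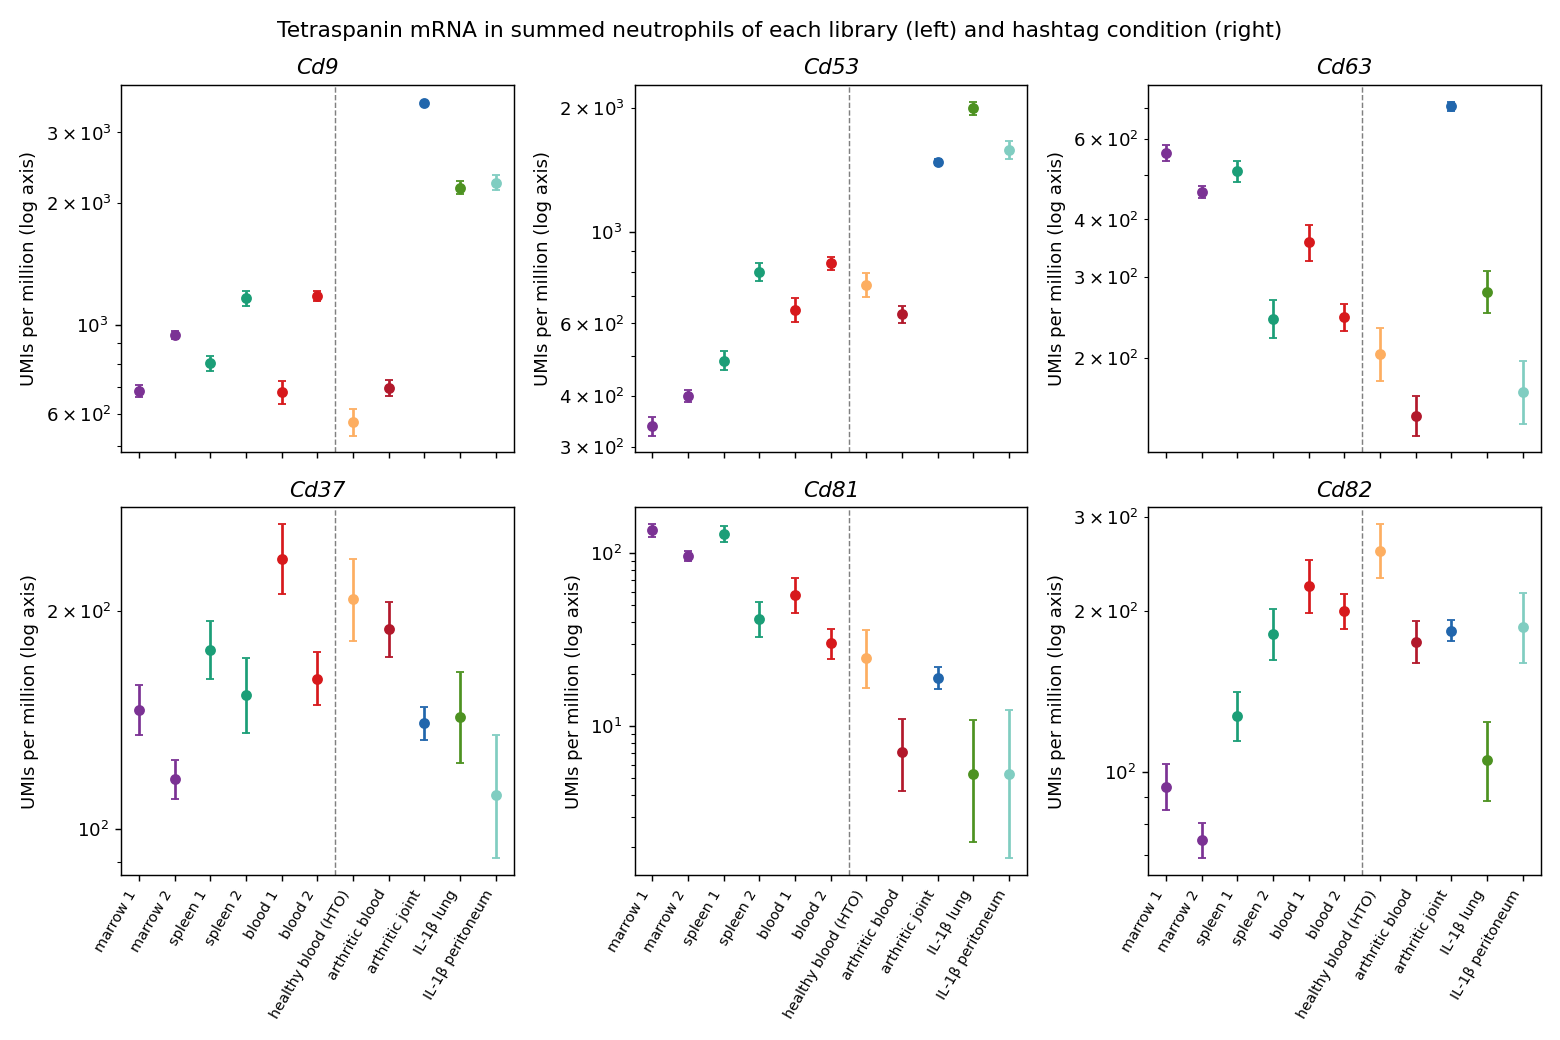
CPM (log axis) of each gene in the summed neutrophils of the 6 healthy libraries (left of the dashed line, 2 runs per tissue) and the 5 hashtag conditions (right), with exact 95% Poisson intervals that cover counting error only. Cd82 and Cd53 are lowest in both bone marrow libraries, Cd81 and Cd63 are high in bone marrow and spleen run 1, and Cd9 reaches 3542 in the joint.

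Because the tissues differed in their share of granule-rich cells, the 6 genes were next compared between cells of the same library with few granule transcripts (Camp, Ngp, Ltf and Lcn2 under 1% of UMIs, as in mature cells) and with many (at least 5%, as in cells still making secondary and tertiary granules). Here 2 of 6 genes rose and 2 fell, and for these 4 genes the CPM of the cell groups did not overlap over the 6 libraries, as it did not for 19.4% of all genes tested upward and 4.35% downward. Of the 5268 genes tested, 25.5% were higher and 21.9% lower in granule-low cells (1869 and 680 genes in place of 1341 and 1156 with library totals in place of TMM), so that calls were common in this comparison.

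In blood, Cd82 went from 76.2 CPM in granule-high to 277 in granule-low cells in run 1 and from 32.0 to 207 in run 2, the 32.0 CPM resting on 3 UMIs. It went from 72.3 to 194 and from 59.8 to 103 CPM in bone marrow, and from 69.3 to 316 and from 33.7 to 206 CPM in spleen. It was higher in the granule-low cells of every library, by a fitted log2 difference of 1.37 ± 0.19 (SE, n = 6 libraries; adjusted p = 2.95e-05, edgeR's quasi-likelihood test with library as a block). Cd53 ranged from 495 to 879 CPM in granule-low and from 299 to 389 in granule-high cells. Its log2 difference was 0.69 ± 0.13 (adjusted p = 0.000559 in the same edgeR test).

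In blood, Cd81 went from 79.5 CPM in granule-high to 53.8 in granule-low cells in run 1, where the intervals overlapped, and from 224 to 24.8 in run 2. It went from 170.4 to 71.7 and from 159.9 to 20.5 CPM in bone marrow, and from 164 to 45.3 and from 122 to 29.6 CPM in spleen. Cells with a granule share between these limits already had low Cd81, at 16.0 to 33.6 CPM over the 6 libraries and on 1 to 54 UMIs each, so that in bone marrow run 1 the level went from 170.4 through 25.9 to 71.7 CPM. The levels of the granule-high and granule-low cells rested on 21 to 778 UMIs each. The fitted change was -2.32 ± 0.25 (log2, SE; adjusted p = 2.00e-06, edgeR's quasi-likelihood test). Cd63 went from between 416 and 618 CPM in granule-high to between 204 and 386 in granule-low cells, a change of -1.25 ± 0.14 (adjusted p = 3.69e-06 in the same edgeR test).

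Over the 6 libraries Cd9 and Cd37 did not pass in this comparison on the TMM scale. Cd37 was higher in the granule-low cells of all 6 libraries by CPM (from 143 to 270.1 against 102 to 151), and its fitted log2 difference was 0.25 ± 0.14 (adjusted p = 0.152). Cd9 was also higher by CPM in all 6, by between 1.08 and 1.84 times, and its fitted log2 difference was 0.04 ± 0.14 (adjusted p = 0.85). With library totals in place of TMM, which moved the median log2 difference of all genes from 0.02 to 0.36, both passed (0.61, adjusted p = 0.00616, and 0.40, adjusted p = 0.0422, edgeR), and in the bone marrow libraries alone Cd37 passed (adjusted p = 0.0298), over a range of 0.00616 to 0.662 for Cd37 and 0.0422 to 0.959 for Cd9. The 4 calls kept their direction and passed without any 1 library, in DESeq2, with ranges of under 0.5% against at least 10%, with limits on cell quality and in bone marrow alone.

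When the tissues were compared over granule-low cells only, the differences between blood and bone marrow were 0.44 ± 0.19 (log2, SE) for Cd82, 0.33 ± 0.20 for Cd53, -0.40 ± 0.28 for Cd81 and -0.65 ± 0.19 for Cd63. None of the 6 genes passed edgeR's test there, with adjusted p of 0.19, 0.358, 0.426 and 0.0586, while 582 of 5888 genes did. At an unadjusted p, Cd63 (0.00632) and Cd82 (0.0449) were under 0.05. Between spleen and bone marrow Cd63 passed in these cells (-0.84 ± 0.19, adjusted p = 0.0279, edgeR), beside 478 of 5888 genes, 240 of them lower in spleen. Between spleen and blood the 6 fitted differences in these cells lay between -0.19 and 0.10.

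**Figure D2:**
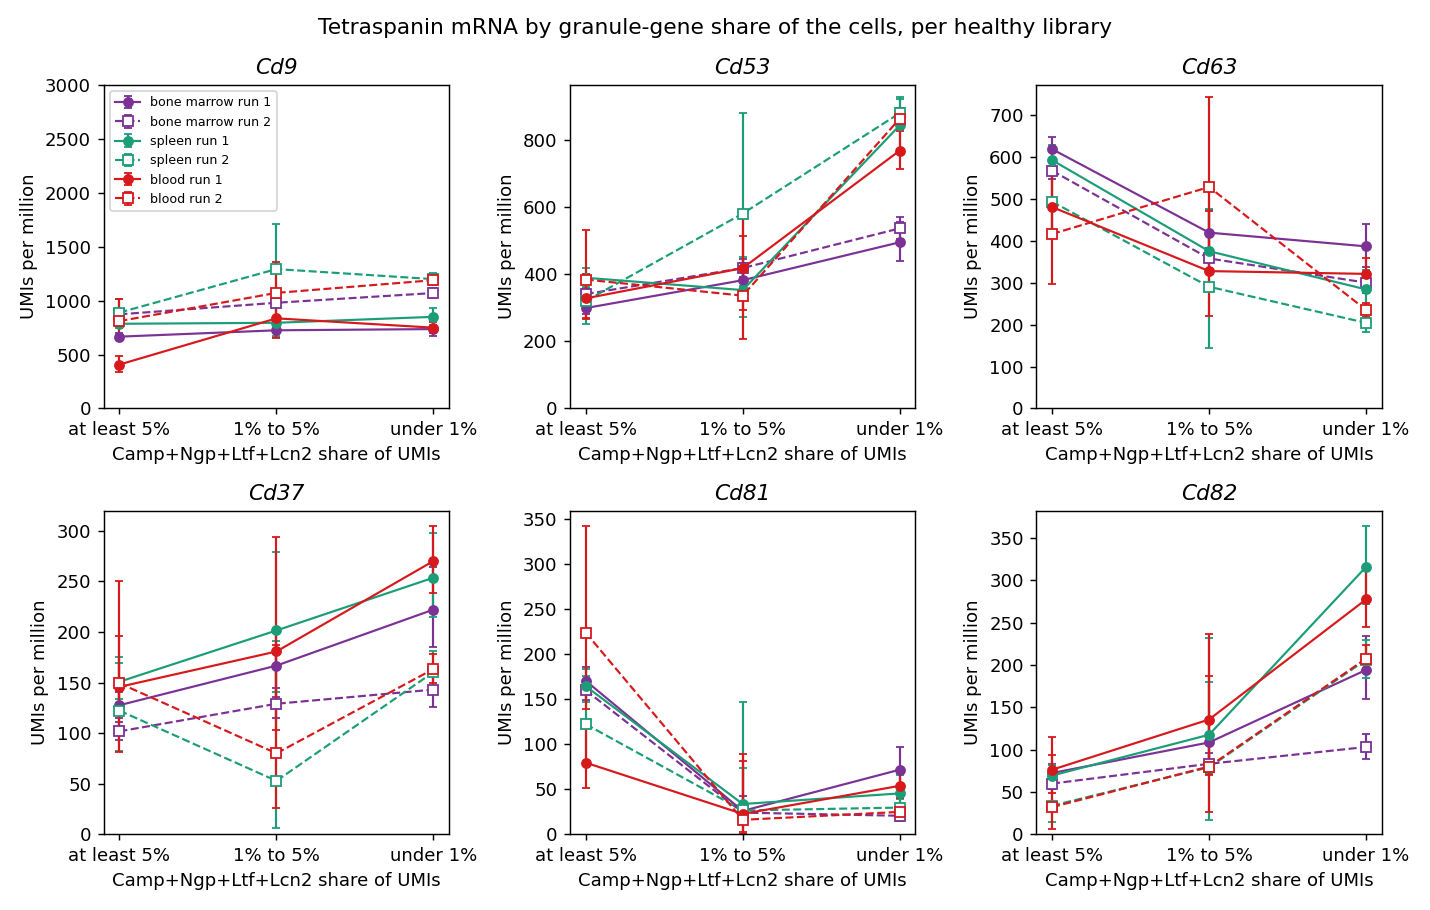
CPM of each gene in cells grouped by the share of UMIs from Camp, Ngp, Ltf and Lcn2, for each healthy library (colour for tissue, filled circles for run 1 and open squares for run 2, bars for exact 95% Poisson intervals). In every library Cd82 and Cd53 are higher, and Cd63 and Cd81 lower, in the cells under 1% than in those with at least 5%, and Cd81 is at 16.0 to 33.6 in the cells between.

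The hashtag library asked how the same genes differed at inflamed sites. Each condition was a single sample, so ratios to the healthy blood of this library are given with exact 95% intervals that cover counting error only, without a test, and a gene was counted when its ratio was at least 2 or at most 0.5. Past that limit by CPM, Cd9 was higher at all 3 inflamed sites, Cd53 in lung and peritoneum and Cd63 in the joint, and Cd81 was lower in lung, peritoneum and arthritic blood, on few UMIs, and Cd82 in lung. The ratio of Cd53 in the joint, 1.99, lay just under it. In the joint 2 of the 6 genes were past 2-fold upward and none downward, where 11% of 7518 genes were up and 24.6% down. In lung and in peritoneum 2 genes were past it upward, where 11.2% and 10.8% of genes were, and 2 and 1 downward, where 47.7% and 49.9% were. In arthritic blood none was up and 1 was down, where 0.942% and 8.7% were. With the TMM factors described next, Cd53 in the joint and Cd63 in the lung were also past 2-fold upward and Cd82 in the lung no longer downward.

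The scale of these ratios has to be read with the median of all genes, which lay at a log2 ratio of -0.46 in the joint, -0.39 in arthritic blood, -0.93 in lung and -0.998 in peritoneum. TMM factors brought it to between -0.02 and 0.03 and turned the balance of genes past 2-fold from 830 up and 1850 down to 1239 and 790 in the joint, from 55 and 508 to 187 and 141 in arthritic blood, from 562 and 2399 to 1165 and 970 in lung and from 513 and 2373 to 1086 and 931 in peritoneum. With TMM 16.5% of genes were thus up and 10.5% down in the joint, 3.2% and 2.42% in arthritic blood, 23.2% and 19.3% in lung and 22.8% and 19.6% in peritoneum. Both scales are therefore given below for the 6 genes, and for the lists where TMM moved a named gene across the 2-fold limit.

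Cd9, which associates with integrins in many cells, had 573 CPM in healthy blood, 695 in arthritic blood, 3542 in joint, 2190 in lung and 2251 in peritoneum. The 3 sites lay above both bloods and, across a change of chemistry and software version, above every healthy library. The ratio to healthy blood was 6.19 in the joint (5.72 to 6.70), 3.83 in the lung (3.51 to 4.17), 3.93 in the peritoneum (3.60 to 4.30) and 1.21 in arthritic blood (1.11 to 1.33). With TMM these were 8.38, 7.43, 7.78 and 1.62. Lung and peritoneum did not differ beyond counting error (ratio 0.973, interval 0.919 to 1.03), while the joint was 1.62 times the lung (1.56 to 1.68) by CPM and 1.13 times with TMM. Per cell, the mean was 1.27 UMIs of Cd9 in healthy blood, 2.30 in arthritic blood and 12.8 in the joint, with a maximum of 77 in a single joint cell.

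Cd53 had 744 CPM in healthy and 632 in arthritic blood, 1483 in joint, 1997 in lung and 1582 in peritoneum, so that its highest level was in the lung and not in the joint. Its ratio to healthy blood was 1.99 in the joint (1.86 to 2.14), 2.68 in lung (2.48 to 2.90) and 2.13 in peritoneum (1.95 to 2.32), and with TMM 2.70, 5.21 and 4.21. The ratio in arthritic blood was 0.850 (0.782 to 0.924), and 1.14 with TMM. The joint held 0.742 times the level of the lung (0.712 to 0.774), or 0.517 with TMM.

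Cd63 separated the joint from the other conditions. It had 204 CPM in healthy blood, 149.6 in arthritic blood, 705 in joint, 279 in lung and 169 in peritoneum. The joint value exceeded the 558 and 459 CPM of the bone marrow libraries, which were of another chemistry and software version. Healthy blood itself had 357 and 245 CPM in those runs. The ratio in the joint was 3.46 (3.04 to 3.97) against healthy blood, or 4.69 with TMM, and 4.71 (4.26 to 5.22) against blood of arthritic mice. It was 2.53 (2.28 to 2.82) against lung and 4.18 (3.57 to 4.92) against peritoneum, or 1.77 and 2.86 with TMM. In lung the ratio to healthy blood was 1.37 (1.16 to 1.62), or 2.66 with TMM. In peritoneum it was 0.829 (0.672 to 1.02), turning to 1.64 with TMM, and in arthritic blood 0.735 (0.623 to 0.868), or 0.981 with TMM. Camp, Ngp, Ltf and Lcn2 summed to 860 CPM in the joint and 838 in healthy blood, but to 2264 in arthritic blood, 4374 in lung and 11907 in peritoneum, where Lcn2 gave 11753 CPM and 61.3% of cells were granule-low against at least 91.3% in the other conditions. At most 1.37% of the cells of any hashtag condition had 5% of their UMIs from them, so that high Cd63 in the joint stood beside low secondary-granule transcripts, unlike in the bone marrow.

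Cd81 was sparse in this library, with 28 UMIs in healthy blood (24.9 CPM), 19 in arthritic blood (7.05 CPM), 196 in joint (19.04 CPM), 7 in lung (5.30 CPM) and 5 in peritoneum (5.30 CPM). Its ratio to healthy blood was 0.283 in arthritic blood (0.150 to 0.526), 0.213 in lung (0.0785 to 0.499) and 0.213 in peritoneum (0.0642 to 0.559), and with TMM 0.378, 0.414 and 0.422. In the joint it was 0.765 (0.513 to 1.18), and 1.04 with TMM. Erythroid-like cells of blood run 2, which came from another library and chemistry and are taken as background, had 7.55 CPM of Cd81. The intervals in arthritic blood (4.25 to 11.0), lung (2.13 to 10.9) and peritoneum (1.72 to 12.4) included that value. Those of healthy blood (16.5 to 36.0) and joint (16.5 to 21.9) lay above it. Between arthritic blood and joint the level of Cd81 was 2.70 times higher in the joint (1.68 to 4.58). Among the B-cell genes Ighm was also lower in lung and peritoneum but did not follow Cd81 between arthritic blood and joint, at 208 CPM in healthy blood, 123 in arthritic blood, 50.2 in joint, 19.7 in lung and 27.6 in peritoneum, while Cd79a, Cd79b and Ms4a1 had 0 CPM in healthy blood. The part of Ighm-bearing RNA in the Cd81 ratios was not tested.

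Cd37 and Cd82 had lower CPM in all 4 other conditions than in healthy blood, and for some of these the direction depended on the scale. Cd37 had 208 CPM in healthy blood, 189 in arthritic blood, 139.98 in joint, 143 in lung and 111 in peritoneum. Its ratios were 0.909 (0.777 to 1.07, which includes 1), 0.673 (0.586 to 0.776), 0.688 (0.565 to 0.837) and 0.535 (0.421 to 0.677). With TMM the ratios of Cd37 were 1.21, 0.911, 1.34 and 1.06. Cd82 had 259.6 CPM in healthy blood, 175 in arthritic blood, 184 in joint, 105 in lung and 187 in peritoneum. Only the lung ratio of Cd82 was past the limit, at 0.405 (0.329 to 0.498), and with TMM it was 0.788. Its ratios in arthritic blood and joint were 0.675 (0.582 to 0.784) and 0.709 (0.627 to 0.805), and with TMM 0.901 and 0.960. In peritoneum Cd82 turned from 0.719 (0.593 to 0.870) to 1.42 with TMM. Between the IL-1β sites, which share a dose and a time but not a route, the Cd82 level in lung was 0.564 times that in peritoneum (0.448 to 0.708).

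Cells of other types were looked at directly. The defining macrophage genes C1qa, C1qb, C1qc, Mrc1 and Ccr2 each stood at 0 to 3.8 CPM in the 5 conditions, Fcgr1 at up to 8.1 CPM (in the joint), and the mast cell list at 0. Without every cell holding a UMI of any of those 6 genes or of the platelet, mast cell or eosinophil lists, an alternative chosen after seeing the data, 2693 joint, 367 lung and 276 peritoneal cells were left, with ratios for Cd9 of 6.20, 3.84 and 3.91 and for Cd63 in the joint of 3.49. Adgre1, of the same monocyte or macrophage list, was not among those 6 genes. It had 157 CPM in peritoneum, 44.4 in healthy blood, 38.2 in arthritic blood, 32.1 in joint and 23.5 in lung. The part of Adgre1-bearing cells in the peritoneal ratios was not tested by this removal.

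**Figure D3:**
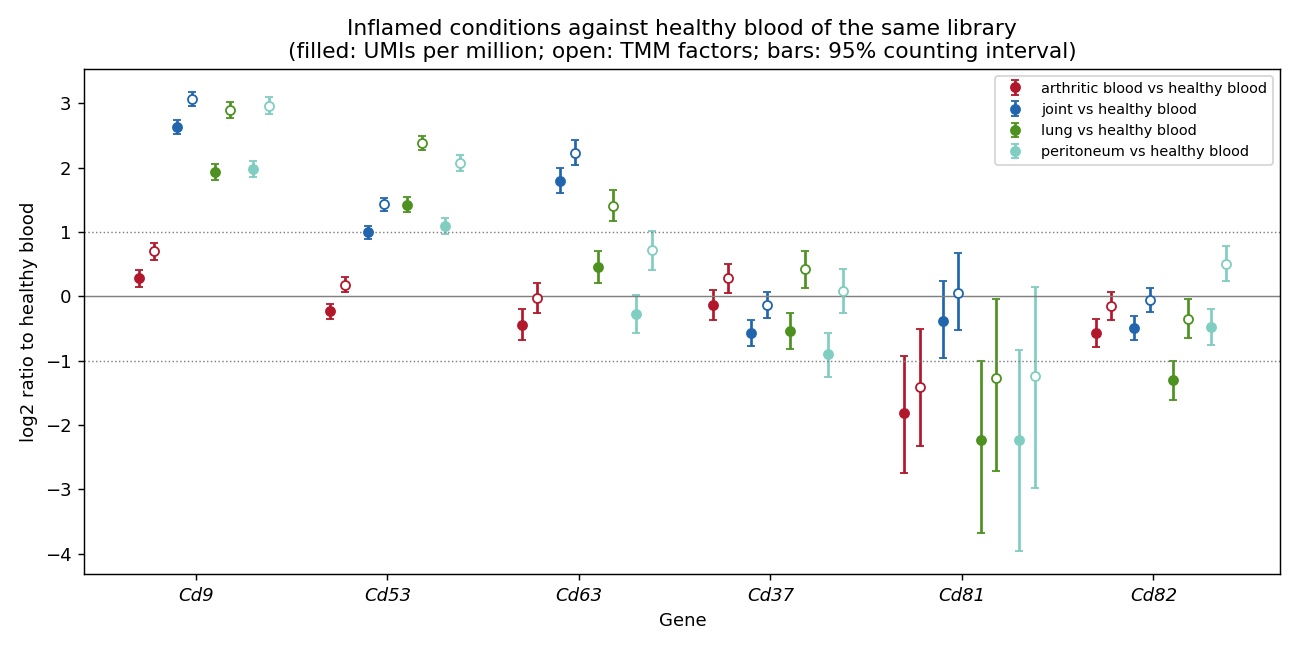
Log2 ratio of each gene to healthy blood of the same library for arthritic blood, joint, lung and peritoneum, by CPM (filled) and with TMM factors (open). Bars are exact 95% intervals of counting error and dotted lines mark the 2-fold limits. Cd9 and Cd53 lie above 0 at the 3 inflamed sites on both scales, and Cd63 is highest in the joint. With TMM Cd37 moves above 0 in arthritic blood, lung and peritoneum, Cd82 and Cd63 in peritoneum, Cd53 in arthritic blood and Cd81 in joint. The TMM intervals of Cd37 in peritoneum and Cd81 in joint span 0.

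To compare shares across depths, 500 UMIs were drawn from each cell without replacement, and 26 cells of blood run 1 that had fewer were dropped. A UMI of Cd9 was then found in 73.2% of joint cells (exact binomial interval 71.5 to 74.8), 54.2% of lung cells (49.1 to 59.3), 61.6% of peritoneal cells (55.8 to 67.2), 29.7% of arthritic blood cells (26.6 to 33.0) and 20.4% of healthy hashtag blood cells (17.0 to 24.2). Unthinned, these were 97.1%, 83.4%, 88.7%, 78.9% and 58.5%, at median depths of 3531, 3681, 3475.5, 3580 and 2527 UMIs per cell. In the healthy libraries the thinned share of Cd9 lay between 26.1% and 42.8%, against 3.04% of B-cell-like, 3.85% of T-cell-like and 2.77% of erythroid-like cells of run 2, which had median depths of 1423, 1833.5 and 2753 UMIs. The Cd9 share in every group of neutrophils was above those of these other cells.

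Cd53 had a thinned share of 51.2% in joint, 55.0% in lung and 46.9% in peritoneum, against 28.1% in arthritic and 29.9% in healthy hashtag blood. In healthy libraries it ran from 16.6% in bone marrow run 1 to 33.9% in blood run 2. Lymphocytes share this gene, at 32.8% of B-cell-like and 30.4% of T-cell-like cells, and 1.24% of erythroid-like cells gave its background. Cd63 reached 24.5% of joint cells (22.9 to 26.1), 11.1% in lung, 6.51% in peritoneum, 5.90% in arthritic and 8.45% in healthy hashtag blood, and at most 0.692% in the 3 other cell types of spleen or blood of run 2. In bone marrow its largest count in a single cell was 51 UMIs, in run 1, although only 19.9% of the thinned cells there had one.

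Cd37 and Cd81 were found more often in B-cell-like cells than in any group of neutrophils. Cd37 was found in 30.0% of the thinned B-cell-like cells of spleen run 2 (27.6 to 32.5) and in between 5.96% and 12.6% of thinned neutrophils. Cd81 was found in 17.6% of those B-cell-like cells (15.6 to 19.8) and in between 0.342% and 4.15% of neutrophils. The Cd81 shares of 0.342% in peritoneum, 0.491% in arthritic blood, 0.526% in lung, 0.875% in joint and 1.38% in healthy hashtag blood had intervals that included the 0.692% of erythroid-like cells. Thinned shares from 1 to 25 cells with a UMI do not separate these conditions from that background, whereas by CPM, as above, healthy blood and joint lay above it. Cd82 was found in between 3.80% and 11.8% of neutrophils, beside 3.48% of B-cell-like, 5.77% of T-cell-like and 0.277% of erythroid-like cells. The Cd82 shares of the bone marrow, 6.05% and 3.80%, were near those of lymphocytes.

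**Figure D4:**
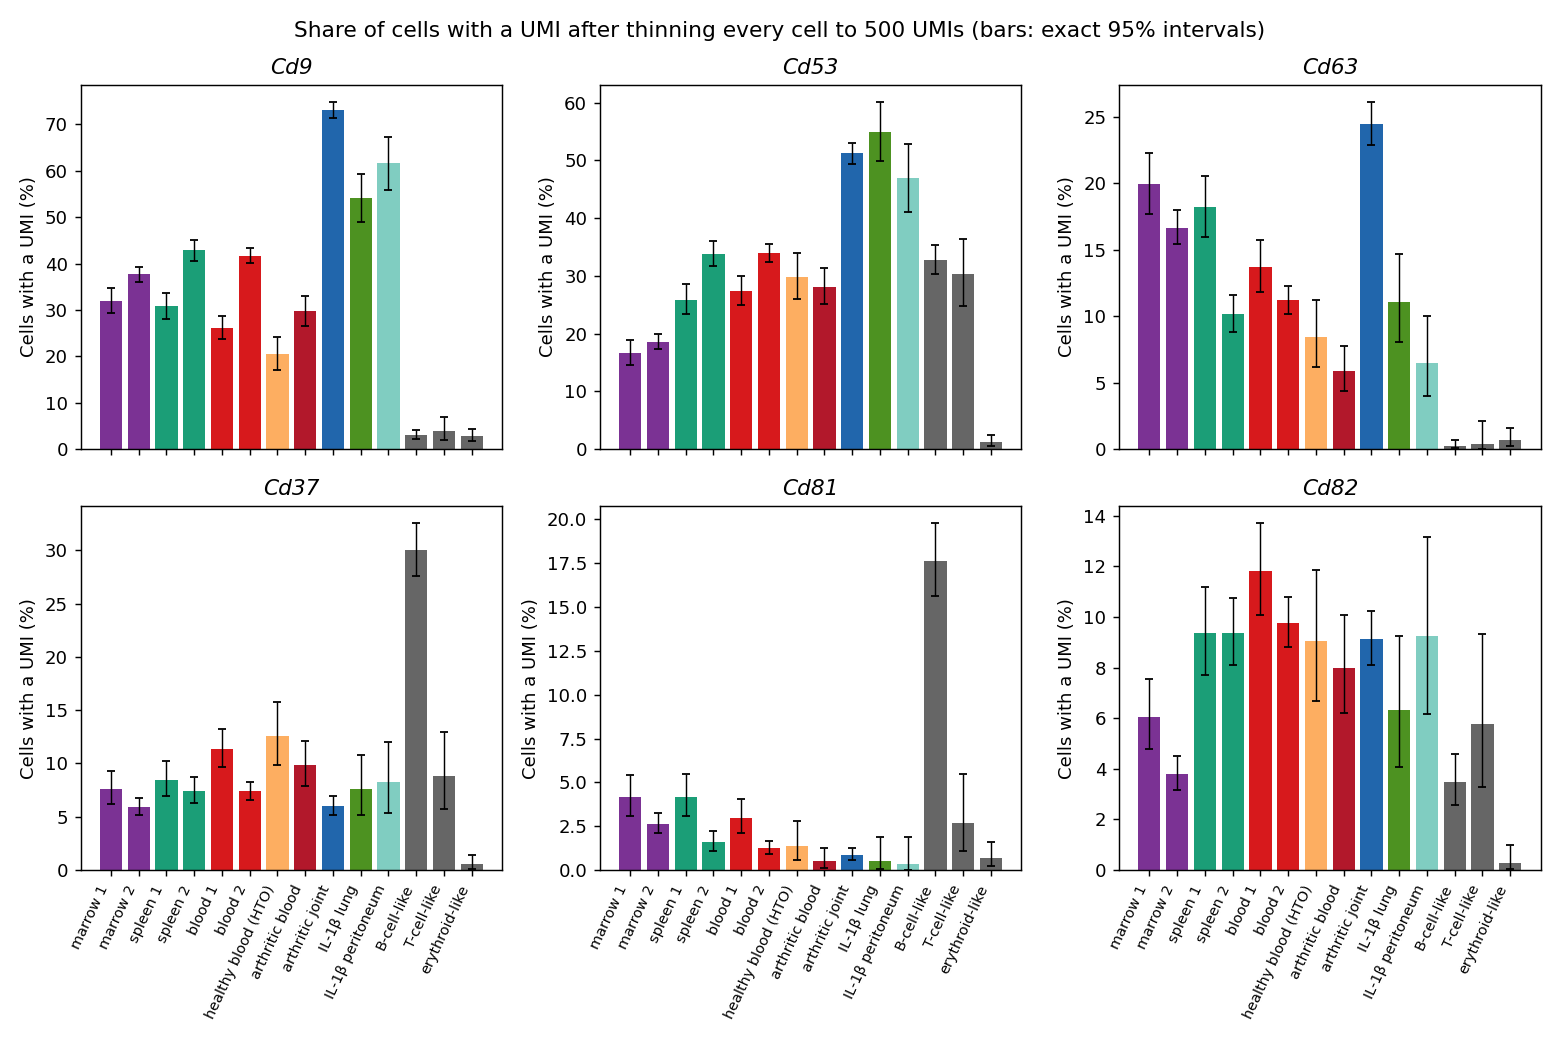
Percentage of cells with a UMI of each gene after thinning every cell to 500 UMIs, for neutrophils of the 6 libraries and 5 conditions and, in grey, for B-cell-like and T-cell-like cells of spleen run 2 and erythroid-like cells of blood run 2. Bars show exact 95% binomial intervals. Cd9 reaches 73.2% in the joint, and Cd37 and Cd81 are most frequent in the B-cell-like cells.

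Other genes of the family and of its known partners were described by lists, with calls from the same edgeR tests and, in the hashtag library, the same 2-fold limit on CPM. Of 25 other tetraspanin genes, 18 had a UMI in kept cells and 1, Tspan13, had a mean of at least 50 CPM over the 11 libraries and conditions. Of the 7 tested between blood and bone marrow, Tspan13 (2.86 higher on the log2 scale) and Tspan2 (2.12) were called higher in blood, and Tspan32 fell by 2.06, beside 12.3% and 11.3% of all genes, with a median of 0.23 beside -0.03 over all genes. Between spleen and bone marrow Tspan13 (2.25) and Tspan2 (1.89) were called higher, out of 7 with a median of 0.05, beside 2.57% of all genes. In granule-low cells, of 5 tested with a median of 0.13 beside 0.02 over all genes, Tspan13 (4.68) and Tspan2 (1.43) were called higher and Tspan32 fell by 1.97, beside 25.5% and 21.9% of all genes. Between spleen and blood none of the 7 was called (median 0.05). In the joint 4 of 7 were past 2-fold downward, beside 24.6% of all genes, among them Tspan32 (17 UMIs in healthy blood and 36 in joint, ratio 0.231) and Tspan2 (ratio 0.248), and 1 upward, Tspan31 (1 UMI in healthy blood, 109 in joint, ratio 11.9 with a counting interval of 2.09 to 475), with a median log2 ratio of -1.43 beside -0.46 over all genes. With TMM 3 of the 7 were past the limit downward, beside 10.5% of all genes, with a median of -0.99. In lung and peritoneum all 3 with enough UMIs, Tspan13, Tspan14 and Tspan2, were past 2-fold downward, beside 47.7% and 49.9% of all genes. Enough meant at least 30 UMIs in both conditions together, which Tspan14 and Tspan2 reached only through healthy blood (68 and 93 UMIs). They had 18 and 11 UMIs in lung and 16 and 27 in peritoneum, so the filter partly set this count. Likewise Tspan31 passed it in the joint through its 109 UMIs there. The ratios of Tspan13, Tspan14 and Tspan2 were 0.441, 0.225 and 0.101 in lung and 0.329, 0.281 and 0.346 in peritoneum. The median log2 ratios were -2.15 and -1.60 beside -0.93 and -0.998 over all genes. With TMM the ratios were 0.856, 0.438 and 0.196 in lung, and 0.652, 0.556 and 0.686 in peritoneum, where none was then past the limit. In arthritic blood 1 of 6 was, Cd151 (ratio 0.496, interval 0.242 to 1.03), with a median of -0.47, beside 8.7% of all genes, and none with TMM (Cd151 0.662).

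The list of 17 partners and ligands holds integrins, immunoglobulin-family and membrane-linker proteins that tetraspanins are known to bind. Of the 13 tested between blood and bone marrow, 5 were higher in blood and none lower, beside 12.3% and 11.3% of all genes, with a median log2 difference of 0.92, led by the integrin α-chains Itga4 (3.28) and Itgal (1.67) and the actin linker Ezr (1.09). Itga4 (2.72) and Itgal (1.25) were also higher in spleen than in bone marrow, as 2 of 13 with a median of 0.55, beside 2.57% of all genes. In granule-low cells 4 of 10 rose and 1 fell, beside 25.5% and 21.9% of all genes, with a median of 0.40, led by Itga4 (2.14) and Itgal (1.64), and Itgam fell by 0.86. None of the 13 was called between spleen and blood (median -0.11). At the inflamed sites Itga4 had ratios to healthy blood of 0.146 in joint, 0.101 in lung and 0.122 in peritoneum. Icam1, the ligand of β2 integrins, was 10.1 times higher in lung (6.49 to 16.7) and 23.0 times higher in peritoneum (14.8 to 37.5), Itgal was at 0.222 times in lung, and the protease gene Adam17 was at 2.30 times in joint (1.79 to 3.02). The counts past 2-fold were 1 up and 3 down of 12 in joint (median log2 -0.16), 1 and 3 of 10 in lung (-0.40), 1 and 1 of 10 in peritoneum (-0.38) and 0 and 3 of 11 in arthritic blood (-0.46), the last being Ptgfrn (0.401), Itgb1 (0.490) and Icam1 (0.497). Of all genes 11%, 11.2%, 10.8% and 0.942% were up and 24.6%, 47.7%, 49.9% and 8.7% down in these conditions in the same order. With TMM, on which 10.5%, 19.3%, 19.6% and 2.42% were down and 16.5%, 23.2%, 22.8% and 3.2% up, the counts were 1 and 2 in joint, 2 and 2 in lung, 4 and 1 in peritoneum and none in arthritic blood, where Ptgfrn, Itgb1 and Icam1 were at 0.535, 0.654 and 0.664. Ptgfrn, at 0.280 in joint, had 64.99 to 148 CPM in run 1 and 0.6 to 4.4 CPM in run 2, and its values are uncertain.

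Of 15 genes of late endosomes and extracellular vesicles, the compartments in which CD63 travels, 14 were tested in healthy cells. Vamp7 and Tsg101 fell by 1.63 and 1.13 from bone marrow to blood (2 lower of 14, beside 11.3% of all genes, median -0.01), and none passed between spleen and the other tissues, with medians of -0.03 and 0.06. In granule-low cells 5 rose and 3 fell of 14 (median 0.20), beside 25.5% and 21.9% of all genes, where Vamp7 fell by 1.29 and Chmp4b (0.93) and Sdcbp (0.91), the gene of the CD63-binding adaptor syntenin, rose. At the inflamed sites Rab7, a GTPase of late endosomes, was 5.26 times healthy blood in joint (4.67 to 5.95), 3.15 times in lung (2.75 to 3.61) and 2.42 times in peritoneum (2.09 to 2.80). The lysosomal membrane gene Lamp2 was 3.51 times higher in joint (3.11 to 3.98). Rab27a, which serves vesicle docking, was at 0.438, 0.389 and 0.380 times, Ap3d1 at 0.383 times in lung and Tsg101 at 0.265 times in peritoneum and 0.348 times in arthritic blood. In all, 2 were up and 1 down of 13 in joint (median 0.05), 3 and 2 in lung (-0.17), 2 and 4 in peritoneum (-0.41) and 0 and 1 in arthritic blood (-0.29), beside 11%, 11.2%, 10.8% and 0.942% of all genes up and 24.6%, 47.7%, 49.9% and 8.7% down. With TMM 5 of 13 were up and none down at each of the 3 inflamed sites, beside 16.5%, 23.2% and 22.8% of all genes up, and 0 and 1 in arthritic blood, with Rab27a at 0.593, 0.757 and 0.752 times in joint, lung and peritoneum, Ap3d1 at 0.743 times in lung and Tsg101 at 0.525 times in peritoneum and 0.465 times in arthritic blood.

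As a description of likeness, genes were ranked by Pearson's r with each member over the log2(CPM + 10) levels of the 11 libraries and conditions, among 2039 genes with a mean of at least 50 CPM. These points share runs, chemistry and library, and carry no p-value. The 3 nearest genes are named, out of 129 with r above 0.9 for Cd53, 66 for Cd81, 15 for Cd82, 7 for Cd9, 1 for Cd37 and none for Cd63. Cd53 was most like Fth1 (r = 0.99), Hdc (0.99) and Slc2a1 (0.98), and Cd9 most like Esd (0.93), Rab7 (0.92) and G0s2 (0.92). Cd81 was most like S100a13 (0.98), Abracl (0.98) and Cebpe (0.98), a transcription factor gene of granulocyte precursors. Cd82 was most like Unc93b1 (0.97), Rab8a (0.96) and Ctsa (0.95), genes of vesicle trafficking and of endosomal or lysosomal proteins. Cd63 was nearest to Atp6v1d (0.82), a subunit of the vacuolar proton pump, Capg (0.82) and Cd24a (0.80), and Cd37 was nearest to Selt (0.90), Coro1a (0.89) and Hist1h1c (0.88). Among the members themselves r was highest between Cd9 and Cd53 (0.82) and lowest between Cd53 and Cd81 (-0.83).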

How the data were processed

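Neutrophils were profiled by droplet single-cell RNA-seq with 3′ UMI libraries. The deposited UMI counts per gene symbol and cell were made by the authors with Cell Ranger on mm10, in versions 1.2.0 (run 1), 2.1.0 (run 2) and 3.0.2 (hashtag library), and hashtag doublets had been removed. Chemistry was v2 for healthy tissues and v3 for the hashtag library. No doublet caller was run on the healthy cells. The members and gene lists were chosen with earlier results of these data known.

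Counts were summed per library over the kept cells and tested with edgeR 4.0.16 (quasi-likelihood, TMM, filterByExpr, run or library as a block, Benjamini-Hochberg adjustment over all genes, threshold 0.05), with DESeq2 1.42.0 as an alternative, in R 4.3.3. Between bone marrow, blood and spleen, n was 2 libraries of 3 pooled mice. Each run took its tissues from the same mice, and deviations of same-run libraries correlated at r = 0.59, 0.54 and 0.63 over 7748 genes. The hashtag conditions had 1 sample each and were compared by CPM over genes with at least 30 UMIs in both conditions together. Scripts were tested on simulated data. Totals per deposited library ran from 1968514 to 16390439 UMIs. Intervals of levels, ratios and shares cover counting error only, and those of edgeR's log2 differences come from its fit.

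Every member was named throughout. Of each other list, the 3 called genes with the largest differences were named per comparison, and for likeness the 3 nearest genes. B-cell-like cells of run 2 had at least 3 UMIs of the B-cell genes and no T-cell UMI, T-cell-like cells at least 2 UMIs of the T-cell genes and no B-cell UMI, and erythroid-like cells at least 20% of UMIs from erythroid genes, all with S100a8 and S100a9 under 3%. Alternatives were other tools, filters, cell rules, scalings and left-out libraries.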

Additional observations from a re-analysis of the deposited data

How the results depend on the processing

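Of the counts of members called, 4 between blood and bone marrow became 0 without the replicate block (run; Cd82 and Cd81 then had unadjusted p of 0.00546 and 0.0441 in edgeR), although the runs pair the tissues of the same mice, and 0 in granule-low cells and 0 with all deposited cells. The count was between 0 and 4 when 1 library was left out. The 0 members called between spleen and bone marrow became 1 in granule-low cells, where 478 of 5888 genes were called, against 248 of 7748 over all kept cells. Leaving out 1 library, which leaves a tissue with 1 sample, also moved this count and the 0 between spleen and blood. Between granule-low and granule-high cells the count stayed at 4 without any 1 library. The 1 gene past 2-fold in arthritic blood, Cd81, was 0 without cells holding a UMI of any list of other cells, because its counts then fell under 30 UMIs. Those lists hold Ly6c2, Csf1r and Adgre1, which had 66.7, 166 and 44.4 CPM in the neutrophils of healthy blood, and left 375 of 814 cells. In the same setting the counts past 2-fold went from 4 to 3 in lung and from 3 to 2 in peritoneum, where Cd81 also fell under 30 UMIs and 5 members were tested. The count went from 2 to 3 in joint, where Cd53 crossed the limit, as it did in joint with TMM, with S100a8 and S100a9 out of the totals (2.04) and without cells holding defining genes of other types. The causes of the other changes were not tested. The count of members called between blood and bone marrow was 3 with limits on cell quality, with S100a8 and S100a9 at 10% or more and without the filter, where Cd53 was lost, and with library totals, where Cd63 was. Calls over all genes also moved with the block, 1831 genes with it and 171 without it between blood and bone marrow (0 with all deposited cells and 133 without blood run 2), 248 and 0 between spleen and bone marrow and 16 and 0 between spleen and blood.

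Signs turned only for members that had not passed. Between blood and bone marrow Cd9 turned to 0.16 with library totals and Cd37 to -0.10 in granule-low cells, and Cd9 ranged from -0.43 to 0.17 without 1 library. Between spleen and bone marrow Cd9 turned to -0.15 in granule-low and -0.45 in all deposited cells (-0.16 to 0.37 without 1 library), and Cd37 to -0.16 in granule-low cells (-0.0075 to 0.36). Between spleen and blood Cd9 turned to -0.42 in all deposited cells (-0.059 to 0.53 without 1 library), Cd63 to -0.19 in granule-low and -0.086 in all deposited cells (-0.20 to 0.93), Cd37 to 0.28 in all deposited cells, and Cd53 and Cd82 to 0.081 and 0.077 in granule-low cells. Between granule-low and granule-high cells Cd9 turned to -0.15 with the stricter ranges (-0.11 to 0.12 without 1 library). With 2 libraries per tissue and 1 sample per condition, the lack of a call does not show that a gene stayed level.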
